A study of Mus musculus with 6 samples.

Results

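The clustered protocadherin genes were taken as every row of the deposited expression table whose symbol starts with Pcdha, Pcdhb or Pcdhg. This gave 58 of the 55335 rows, with 14 in the alpha cluster, 22 in the beta cluster and 22 in the gamma cluster. Of the 58 genes, 5 are C-type genes (Pcdhac1, Pcdhac2, Pcdhgc3, Pcdhgc4 and Pcdhgc5) and 53 are variable genes. RNA was sequenced from 6 samples of primary mouse GABAergic interneurons prepared from wild-type C57BL/6 brains at embryonic day 14.5. Cells of 3 libraries carried an adeno-associated virus whose hairpin targets Brpf1 (AAV-shbrpf1), and cells of the other 3 carried one with a scrambled hairpin (AAV-scramble). Both groups were infected for 12 hours, and there was no uninfected group. One field of the labels calls the source neural progenitor cells, while the titles call it GABAergic interneurons.

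Clustered protocadherins are cadherin-like membrane proteins by which a neuron tells its own processes from those of other neurons. Each variable gene of the alpha and gamma clusters is a first exon with its own promoter, which is spliced to constant exons shared by the whole cluster, whereas beta genes are single exons without constant exons. Single neurons use a mostly random subset of variable promoters, through DNA loops made by CTCF and cohesin, and C-type genes are used more broadly. In mice the gamma cluster, Pcdhgc4 in particular, is needed for the survival of cortical interneurons.

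The 3 clusters lie in a row on the plus strand of chromosome 18 (GRCm38). The alpha cluster runs from 36930184 to 37187661, the beta cluster from 37264938 to 37524479 and the gamma cluster from 37661793 to 37841873. In the annotation, every alpha gene shares 2860 nt of constant exons, and every gamma gene shares 2116 to 2119 nt. The first exons are 2346 to 3028 nt long in the alpha cluster and 2499 to 2961 nt in the gamma cluster. A large part of each alpha or gamma transcript is therefore identical to that of its neighbours, and the sources used here do not say how fragments in the shared exons were apportioned among genes. Levels of single alpha and gamma genes are uncertain for that reason. The symbol Pcdha11 stands on 2 rows, one starting at 37005203 and the other at 37010712, and RefSeq places Pcdha10 at 37005320 to 37187657. Genes on the opposite strand overlap the span of 37 of the 58 genes (14 alpha, 1 beta and 22 gamma). These 12 genes reached at most 2.17 FPKM, and the sources used here do not say whether strand was used in counting.

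The libraries held an estimated 13.1 to 21.1 M fragments, and 18780 to 26132 genes were above 0. The values are read as FPKM, that is fragments relative to transcript length and library depth. Brpf1 itself had 3.13, 4.58 and 3.78 FPKM in AAV-shbrpf1 libraries 1, 2 and 3, against 3.29, 5.45 and 4.84 FPKM in AAV-scramble libraries 1, 2 and 3. It was lower in each of the 3 same-numbered pairs, its groups overlapped, and the difference of -0.18 on the log2(FPKM + 1) scale did not pass the test (limma, Benjamini-Hochberg adjusted p = 1.00). None of the 12792 genes tested passed that fit, whose error includes the spread between replicate numbers, so this p says little about Brpf1. With the replicate number as a block, no gene passed either (limma, smallest adjusted p 0.404 over all genes). Summed over 8 genes, markers of GABAergic interneurons stood at 637 to 750.4 FPKM under AAV-shbrpf1 and at 609 to 925 FPKM under AAV-scramble. Progenitor markers (4 genes, mostly Fabp7) summed to 219 to 822 FPKM under AAV-shbrpf1 and to 237 to 792 FPKM under AAV-scramble. Markers of glutamatergic neurons summed to at most 0.843 FPKM in any library. Libraries with the same number were most alike: 86.9% of the sum of squares over 12792 genes lay between numbers 1, 2 and 3, and 3.62% between the viruses. What a number marks, and whether the cultures were separate, is not in the labels, so p-values reflect the spread among these libraries alone, which may be technical.

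Nearly all clustered protocadherin genes were detected, at low levels in the alpha and beta clusters and higher levels in the gamma cluster. All but 1 of the 58 genes were above 0 in every library. At least 1 FPKM in all 6 libraries was reached by 11 of 14 alpha genes, 15 of 22 beta genes and 20 of 22 gamma genes. A level of 10 FPKM in any library was reached by 10 gamma genes and by no alpha or beta gene. The gamma cluster held 56.1% to 85.5% of the summed FPKM of all 58 genes. These figures include 5 widely varying gamma genes described further on. Without them, 5 of 17 gamma genes reached 10 FPKM in a library. The gamma sum was then 1.14 to 6.69 times the beta sum, against 2.12 to 12.4 times with them. RNA from a mixed culture cannot tell whether many cells use a gene a little or a few cells use it strongly, and fewer cells of a type and less RNA per cell cannot be told apart.

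**Figure D1:**
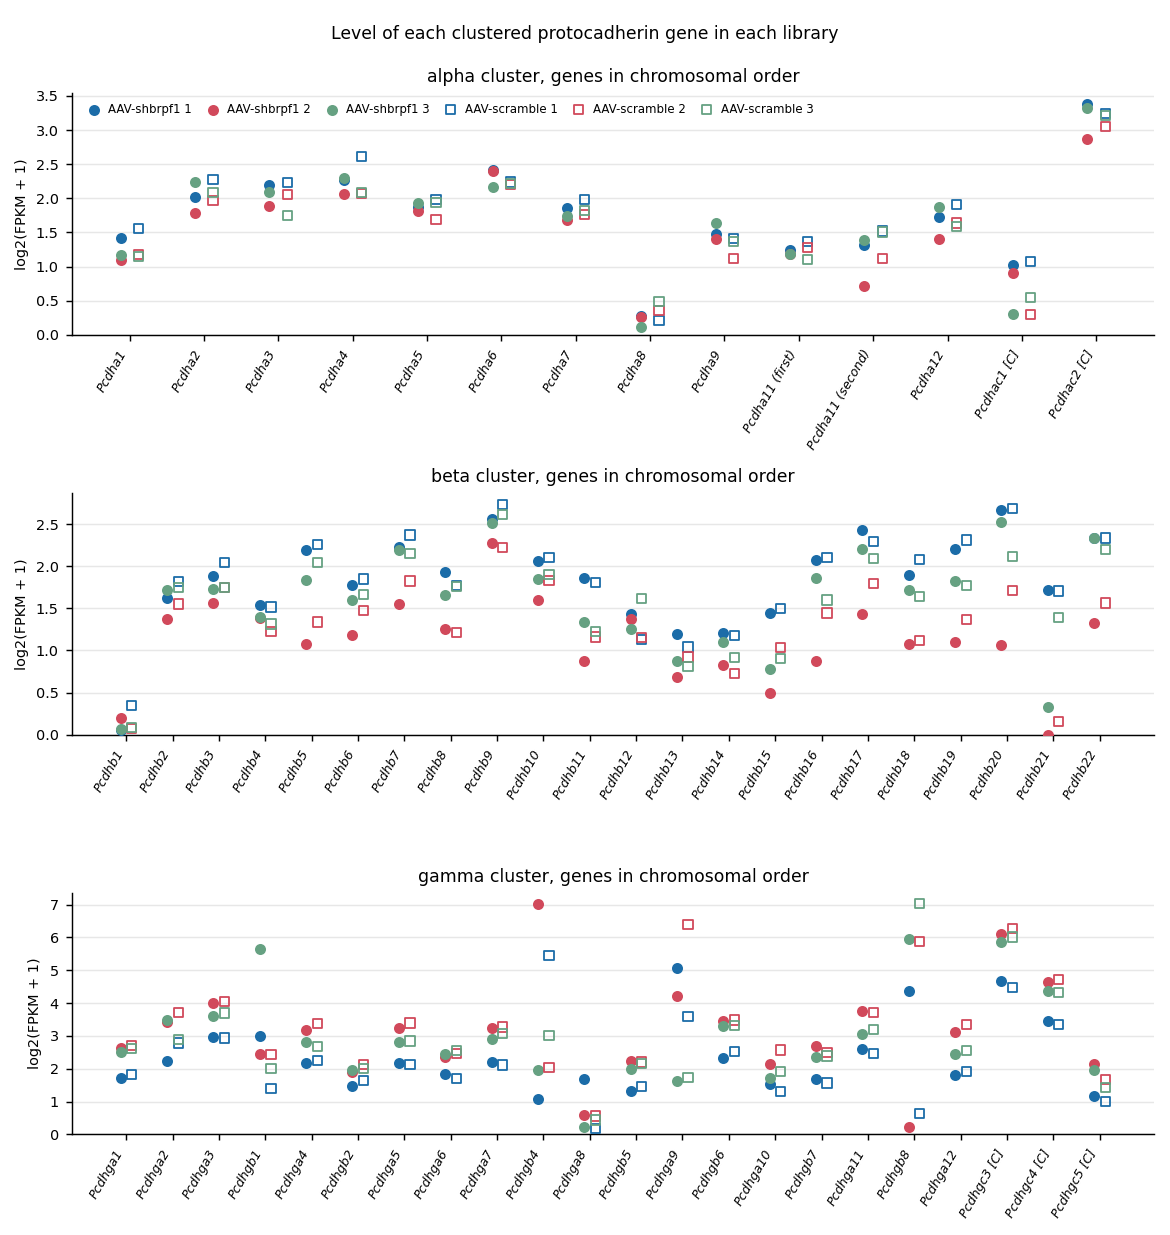
Level of each of the 58 genes on the log2(FPKM + 1) scale, with the genes of each cluster in their order along the chromosome, AAV-shbrpf1 libraries as filled circles to the left of AAV-scramble libraries as open squares, colours for replicate numbers 1 to 3, and [C] after C-type genes. No alpha or beta gene reached 10 FPKM, gamma libraries of number 1 (blue) lie low and beta libraries of number 2 (red) lie low, and Pcdhgb1, Pcdhgb4, Pcdhga9 and Pcdhgb8 spread widely.

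Among the C-type genes, Pcdhgc3 was the most abundant, and its mean of 51.8 FPKM over the 6 libraries was the highest of the 58 genes, although in every library 1 of the variable gamma genes stood above it. Pcdhgc3, whose cytoplasmic part binds the Wnt pathway protein Axin1 in mice, had 24.7, 67.5 and 57.5 FPKM in AAV-shbrpf1 libraries 1, 2 and 3, against 21.1, 76.3 and 63.6 FPKM in AAV-scramble libraries 1, 2 and 3. Both libraries of number 1 were low, and the groups overlapped (difference -0.03 ± 0.57 SE on the log2(FPKM + 1) scale). That SE includes the spread between numbers, and with the replicate number as a block it was 0.105. Pcdhgc4, the isoform tied to interneuron survival, had 9.93, 23.8 and 19.5 FPKM in the AAV-shbrpf1 libraries, against 9.23, 25.5 and 19.1 FPKM in the AAV-scramble libraries. Its pairs were close to equal in each number (difference 0.01 ± 0.45 SE, or ± 0.083 SE with the block).

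Pcdhgc5 had 1.25, 3.44 and 2.89 FPKM under AAV-shbrpf1, against 1.01, 2.20 and 1.69 FPKM under AAV-scramble. It was higher under AAV-shbrpf1 in each of the 3 pairs, although the groups overlapped. The difference was 0.39 ± 0.33 SE, with an unadjusted limma p of 0.277 and an adjusted p of 1.00 over all genes. Blocking on the replicate number gave an unadjusted p of 0.0247, and the Benjamini-Hochberg adjusted p stayed at 1.00 (limma). As a share of the 3 gamma C-type genes, Pcdhgc5 took 3.48%, 3.63% and 3.62% in the AAV-shbrpf1 libraries, against 3.22%, 2.11% and 2.00% in the AAV-scramble libraries. That share was higher in each AAV-shbrpf1 library than in any AAV-scramble library, by 3.48% against 3.22% where the groups came closest. It was looked at after the values of Pcdhgc5 had been seen. The separation was not tested, and no background of shares of other genes was taken for it.

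In the alpha cluster, Pcdhac2, which serotonergic neurons of mice need to space their axons, had 9.40, 6.28 and 9.02 FPKM under AAV-shbrpf1, against 8.44, 7.32 and 8.30 FPKM under AAV-scramble. The groups overlapped (difference 0.02 ± 0.24 SE, or ± 0.105 SE with the block). Pcdhac1, the other alpha C-type gene, had 1.02, 0.866 and 0.234 FPKM under AAV-shbrpf1, against 1.10, 0.227 and 0.460 FPKM under AAV-scramble. It averaged 0.708 FPKM under AAV-shbrpf1 and 0.596 FPKM under AAV-scramble, under the filter of 1 FPKM, and was not tested. Pcdhac2 held 87.9% to 97.5% of the summed level of the 2 alpha C-type genes, and Pcdhgc3 held 67.3% to 75.4% of the 3 gamma C-type genes. C-type genes held 22.8% to 26.5% of the alpha sum and 23.3% to 28.8% of the gamma sum. The gamma share was 43.1% to 52.5% without the 5 widely varying variable genes described further on, so it rests on how those are counted. No beta gene is C-type.

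The variable alpha genes lay close together, with means over the 6 libraries of up to 3.84 FPKM. Pcdha6 had 4.34, 4.26 and 3.48 FPKM under AAV-shbrpf1, against 3.72, 3.60 and 3.64 FPKM under AAV-scramble. Pcdha4 had 3.83, 3.20 and 3.89 FPKM under AAV-shbrpf1, against 5.13, 3.19 and 3.25 FPKM under AAV-scramble. Pcdha2 and Pcdha3 followed, with means of 3.20 and 3.12 FPKM, and the ranges of these 4 genes over the 6 libraries overlapped, so their order is not beyond their spread. Pcdha8, named after its values were seen, was the lowest alpha gene, at 0.0878 to 0.206 FPKM under AAV-shbrpf1 and 0.156 to 0.401 FPKM under AAV-scramble. The order of the 12 variable alpha genes along the chromosome and their mean level had a Spearman rho of -0.44, a description over 12 genes that share libraries and constant exons. The ranking of the 14 alpha genes was alike in same-numbered libraries (rho 0.947 to 0.965 over genes) and in libraries of different numbers (0.899 to 0.969).

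The beta genes, which share no constant exon, were likewise low. Without Pcdhb1 their means over the 6 libraries ran from 0.905 to 4.65 FPKM. Pcdhb9, the most abundant, had 4.92, 3.84 and 4.71 FPKM under AAV-shbrpf1, against 5.65, 3.66 and 5.12 FPKM under AAV-scramble. Pcdhb20 had 5.34, 1.10 and 4.75 FPKM under AAV-shbrpf1, against 5.41, 2.27 and 3.35 FPKM under AAV-scramble, and both libraries of number 2 were low. Pcdhb7 had 3.67, 1.93 and 3.58 FPKM under AAV-shbrpf1, against 4.17, 2.54 and 3.44 FPKM under AAV-scramble. Pcdhb17 had 4.38, 1.71 and 3.60 FPKM under AAV-shbrpf1, against 3.89, 2.46 and 3.27 FPKM under AAV-scramble. In these 4 genes the libraries of number 2 were the lowest of each group.

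For 18 beta genes with 1 exon and 1 transcript, the level could be turned into an estimated number of fragments. In 16 of them it was 14.8 to 495 fragments per library, which puts the counting error alone at 4.49% to 25.98% of the value. Pcdhb1 rested on 2.00 to 9.84 fragments, at 0.0401, 0.147 and 0.0466 FPKM under AAV-shbrpf1 and 0.267, 0.0549 and 0.0593 FPKM under AAV-scramble, so no difference could be detected at this depth. Pcdhb21 was the only one of the 58 genes listed at 0 in a library, and Pcdhb1, Pcdhb21 and Pcdhb22 were named after their values were seen. It had 2.27, 0 and 0.251 FPKM under AAV-shbrpf1, against 2.26, 0.115 and 1.62 FPKM under AAV-scramble, and a count of 0 in AAV-shbrpf1 library 2 allows up to 0.0487 FPKM (3 fragments). Its annotated end overlaps Pcdhb22 by 455 nt, so fragments there could be given to either gene. Pcdhb22 had 4.03, 1.504 and 4.05 FPKM under AAV-shbrpf1, against 4.04, 1.95 and 3.57 FPKM under AAV-scramble.

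Of the 21 tested gamma genes, 4 differed more than 2-fold within a same-numbered pair, and all 4 are among 5 variable genes that share an annotated end. Pcdhga2, Pcdhgb1, Pcdhgb4, Pcdhga9 and Pcdhgb8 are the only gamma genes whose annotated last exon ends at 37841870, which is 3 nt before the end at 37841873 of the other 17. They were set apart after their values had been seen, so they are described and not tested as a set. Pcdhgb8, the most abundant variable gene by its mean of 44.9 FPKM, had 19.5, 0.177 and 61.5 FPKM under AAV-shbrpf1, against 0.553, 58.2 and 129 FPKM under AAV-scramble. The annotation lists Pcdhgb8 as a polymorphic pseudogene, and it was kept in all counts and sums. Pcdhgb4 had 1.10, 129 and 2.93 FPKM under AAV-shbrpf1, against 42.9, 3.12 and 7.07 FPKM under AAV-scramble. Pcdhga9 had 32.7, 17.6 and 2.07 FPKM under AAV-shbrpf1, against 11.1, 82.8 and 2.31 FPKM under AAV-scramble. Each of these 3 genes had overlapping groups and was higher under AAV-shbrpf1 in 1 pair and lower in 2. Both libraries of number 3 were the highest for Pcdhgb8 and the lowest for Pcdhga9, and for Pcdhgb4 the highest library of each group had a different number.

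Pcdhgb1 had 6.995, 4.48 and 48.7 FPKM under AAV-shbrpf1, against 1.64, 4.44 and 3.01 FPKM under AAV-scramble. It was the only 1 of the 53 tested genes in which the groups did not overlap, against a background of 1.07% of all genes tested (0.578% for higher values and 0.492% for lower ones). The gap between the groups rested on 4.48 against 4.44 FPKM in pair 2. The difference was 1.75 ± 0.79 SE on the log2(FPKM + 1) scale, with an unadjusted limma p of 0.0598 and an adjusted p of 1.00, or 0.0359 and 1.00 with the replicate number as a block. Pcdhga2 swung least of the 5 genes, with 3.76, 9.73 and 10.1 FPKM under AAV-shbrpf1, against 5.90, 12.2 and 6.48 FPKM under AAV-scramble.

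The swings of these 5 genes offset one another. Their sum was 64.0, 161 and 125 FPKM under AAV-shbrpf1, against 62.1, 161 and 148 FPKM under AAV-scramble. The other 17 gamma genes summed to 79.4, 190.4 and 152 FPKM under AAV-shbrpf1, against 72.7, 206 and 161 FPKM under AAV-scramble. The 5 genes thus held 43.8% to 47.9% of the gamma sum in every library, while 1 gene among them held 49.1% to 87.3% of their own sum. That leading gene was Pcdhga9, Pcdhgb4 and Pcdhgb8 in AAV-shbrpf1 libraries 1, 2 and 3, against Pcdhgb4, Pcdhga9 and Pcdhgb8 in AAV-scramble libraries 1, 2 and 3.

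**Figure D2:**
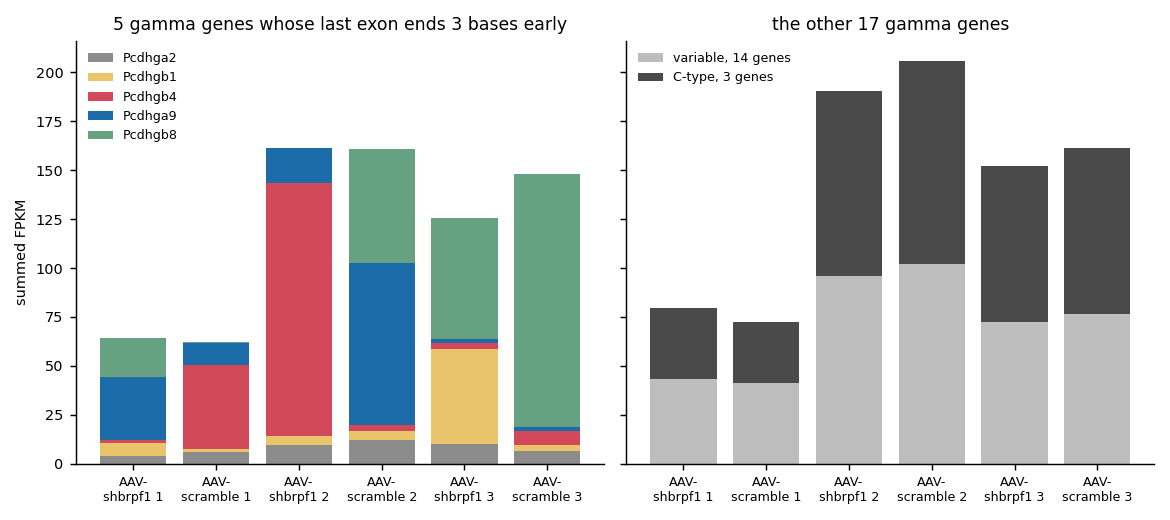
Stacked FPKM per library of the 5 gamma genes whose last exon ends 3 nt early (left, 1 colour per gene) and of the other 17 gamma genes (right, split into 14 variable and 3 C-type genes), with each AAV-shbrpf1 library left of its same-numbered AAV-scramble library. The totals of the left panel are close in pairs 1 and 2 (64.0 and 62.1, 161 and 161 FPKM), although the leading gene changes. They differ more in pair 3 (125 and 148 FPKM), where Pcdhgb8 leads in both libraries. In the right panel the C-type share is 43.1% to 52.5%.

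The largest fold difference between the libraries of a pair was 1.57 to 329 over the 5 genes, with a median of 16.2. It was 1.07 to 1.71 over the 16 tested gamma genes that end at the common position. A difference above 2-fold within a pair was found in 4 of the 5 genes and in 0 of these 16, against 8.72% of all genes tested. Pcdhga8, the untested gamma gene, also ends at the common position and had a ratio of 16.6, at 2.21, 0.522 and 0.170 FPKM under AAV-shbrpf1 and 0.133, 0.475 and 0.358 FPKM under AAV-scramble. In same-numbered libraries the ranking of the 17 genes with the common end had a Spearman rho of 0.941 to 0.990 over genes, against 0.423 to 0.823 for all 22 gamma genes. Between libraries of different numbers the rho was 0.924 to 0.980 for the 17 genes and 0.302 to 0.962 for all 22. The part that the assignment of shared-exon fragments plays in these swings was not tested. Pcdhga8 and Gm38182 were named after their values were seen. Gm38182, a plus-strand gene listed at 37823879 to 37840382 within the gamma cluster, swung as well, at 2.00, 0.782 and 2.34 FPKM under AAV-shbrpf1 and 0.170, 9.71 and 2.00 FPKM under AAV-scramble.

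The other variable gamma genes kept a steady order. Pcdhga3 led them with 6.77, 15.2 and 11.2 FPKM under AAV-shbrpf1, against 6.65, 15.6 and 12.0 FPKM under AAV-scramble, and its pairs differed by at most 1.07-fold. Pcdhga11 had 5.06, 12.6 and 7.35 FPKM under AAV-shbrpf1, against 4.49, 12.2 and 8.14 FPKM under AAV-scramble. Pcdhgb6 had 4.02, 9.99 and 8.97 FPKM under AAV-shbrpf1, against 4.76, 10.2 and 8.95 FPKM under AAV-scramble. In all 3 genes the libraries of number 1 were the lowest of each group and those of number 2 the highest. These 3 were named after their values had been seen. Position along the chromosome and mean level were hardly related over the 14 variable genes with the common end (rho -0.07) or over the 22 beta genes (rho 0.14).

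The comparison of the viruses asks whether the hairpin against Brpf1, a scaffold of histone acetyltransferase complexes, came with a change in these genes. No clustered protocadherin gene passed. Of the 58 genes, 53 averaged 1 FPKM or more in at least 1 group and were tested (12 alpha, 20 beta and 21 gamma, of which 4 C-type and 49 variable). With limma and Benjamini-Hochberg adjustment 0 of the 53 passed, as did 0% of the 12792 genes tested. At an unadjusted p under 0.05 there were 0 of the 53 members and 23 of the 12792 genes. The error of this fit includes the spread between replicate numbers, so it could detect little. The lack of calls is therefore no evidence that the genes did not change. Blocking on the replicate number, 0 of 53 passed as well, and 2 members, Pcdhgb1 and Pcdhgc5, had an unadjusted p under 0.05, against 2.19% of all genes tested (280).

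The median difference was -0.04 for the alpha genes, -0.09 for the beta genes and -0.04 for the gamma genes on the log2(FPKM + 1) scale, beside -0.02 for all genes tested. For C-type genes it was 0.01 and for variable genes -0.07. Across the 3 pairs, 5 of the 53 tested members were higher under AAV-shbrpf1 in each (Pcdha9, Pcdhb4, Pcdhb14, Pcdhgb1 and Pcdhgc5), against 7.15% of all genes tested (915 of 12792). A further 11 of the 53 were lower in each pair, against 11.3% of all genes tested (1444 of 12792). Of these 11, 2 were alpha, 6 were beta and 3 were gamma genes. Both shares of the members lay above those of all genes, and neither excess was tested.

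The members of smallest p in each cluster were small differences apart from Pcdhgb1. Pcdha9 had 1.79, 1.65 and 2.11 FPKM under AAV-shbrpf1, against 1.66, 1.17 and 1.57 FPKM under AAV-scramble (difference 0.21 ± 0.22 SE). Pcdha11 on the row that starts at 37010712 had 1.495, 0.644 and 1.63 FPKM under AAV-shbrpf1, against 1.87, 1.17 and 1.84 FPKM under AAV-scramble (difference -0.24 ± 0.27 SE). Both had overlapping groups. Pcdhb14 had 1.31, 0.772 and 1.14 FPKM under AAV-shbrpf1, against 1.27, 0.656 and 0.881 FPKM under AAV-scramble (difference 0.10 ± 0.24 SE). Pcdhb15 had 1.72, 0.404 and 0.711 FPKM under AAV-shbrpf1, against 1.83, 1.05 and 0.875 FPKM under AAV-scramble (difference -0.24 ± 0.32 SE). Pcdhgb2 had 1.77, 2.71 and 2.87 FPKM under AAV-shbrpf1, against 2.10, 3.35 and 2.99 FPKM under AAV-scramble (difference -0.15 ± 0.25 SE). Each of these 5 rows had an adjusted limma p of 1.00 with Benjamini-Hochberg adjustment.

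**Figure D3:**
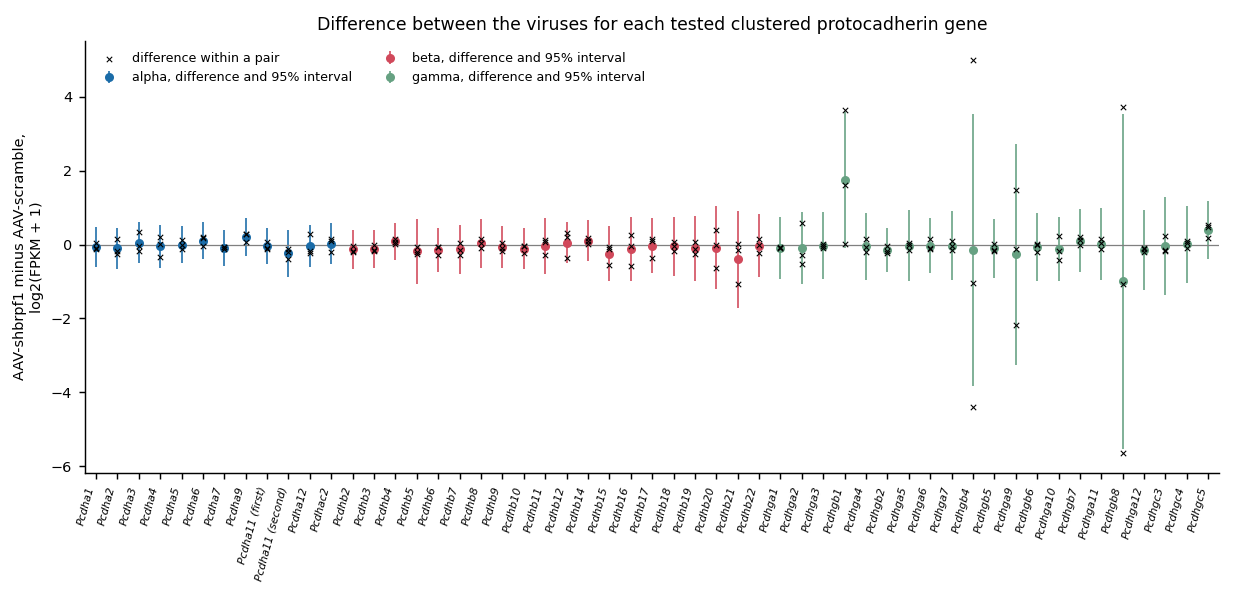
Difference between AAV-shbrpf1 and AAV-scramble on the log2(FPKM + 1) scale for the 53 tested genes in chromosomal order (circles with 95% limma intervals) and within each same-numbered pair (crosses). The intervals are from the fit without the replicate number as a block, and every one of them includes 0. With that block, the unadjusted 95% intervals of Pcdhgb1 (0.164 to 3.33) and Pcdhgc5 (0.0713 to 0.709) lie above 0. Pcdhgb1 has the highest difference (1.75), and the pairs of Pcdhgb4 and Pcdhgb8 point in opposite directions.

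The summed level of each cluster was close between the viruses. The alpha sum was 39.3, 31.0 and 37.8 FPKM under AAV-shbrpf1, against 41.8, 32.4 and 34.8 FPKM under AAV-scramble. Means were 36.0 ± 4.43 FPKM under AAV-shbrpf1 and 36.3 ± 4.86 FPKM under AAV-scramble (SD, n = 3 each). The beta sum was 61.5, 28.5 and 49.6 FPKM under AAV-shbrpf1, against 63.6, 35.4 and 49.5 FPKM under AAV-scramble. It averaged 46.5 ± 16.7 FPKM under AAV-shbrpf1 and 49.5 ± 14.1 FPKM under AAV-scramble (SD, n = 3 each). The gamma sum was 143, 352 and 278 FPKM under AAV-shbrpf1, against 135, 367 and 309 FPKM under AAV-scramble. It averaged 258 ± 106 FPKM under AAV-shbrpf1 and 270.2 ± 121 FPKM under AAV-scramble (SD, n = 3 each).

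Differences of the mean log2 sum were -0.01 for alpha, -0.12 for beta and -0.04 for gamma, each within the spread between libraries of 1 group. That spread includes the differences between replicate numbers. Within pairs 1, 2 and 3, the AAV-shbrpf1 sum over the AAV-scramble sum was 0.942, 0.956 and 1.08 for alpha, 0.967, 0.804 and 1.003 for beta, and 1.06, 0.959 and 0.898 for gamma, so no cluster kept 1 direction in all pairs. C-type genes summed to 46.3, 102 and 89.2 FPKM under AAV-shbrpf1, against 40.9, 112 and 93.2 FPKM under AAV-scramble. Variable genes summed to 198, 309 and 276 FPKM under AAV-shbrpf1, against 199, 323 and 300.4 FPKM under AAV-scramble. For either type the groups overlapped. Within pairs, the AAV-shbrpf1 sum was 1.13, 0.913 and 0.957 of the AAV-scramble sum for C-type genes and 0.993, 0.958 and 0.918 for variable genes, lower in all 3 pairs for the variable genes. Sums were given no test.

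**Figure D4:**
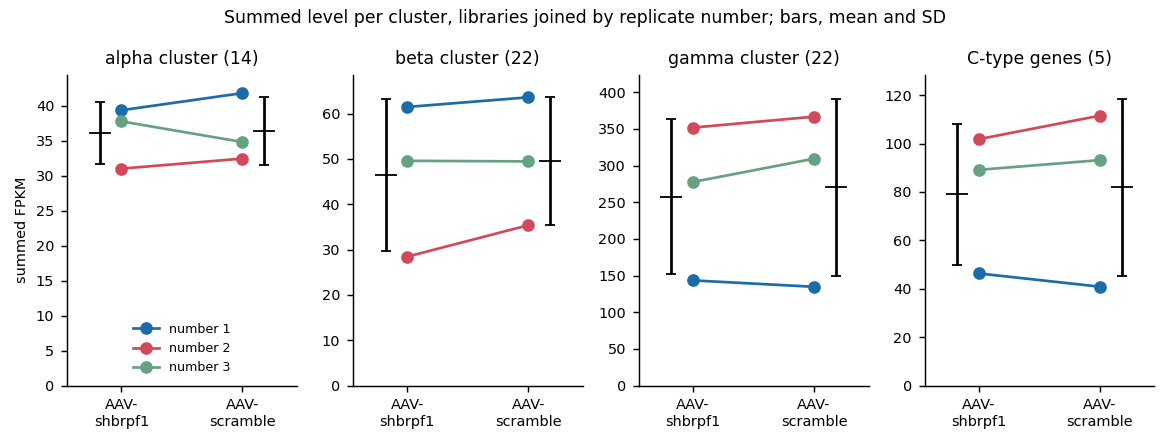
Summed FPKM of the alpha, beta and gamma clusters and of the 5 C-type genes in each library, with lines joining libraries of the same replicate number and bars for the mean and SD of each virus (n = 3). Lines run nearly level between the viruses and stay apart by number: number 1 is lowest and number 2 highest in the gamma cluster (143 and 135 against 352 and 367 FPKM), and the reverse holds in the beta cluster.

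Between replicate numbers the clusters differed in opposite directions. The mean gamma sum was 139, 359 and 293 FPKM in numbers 1, 2 and 3, that of the beta cluster 62.5, 31.9 and 49.5 FPKM, and that of the alpha cluster 40.6, 31.7 and 36.3 FPKM. Number 2 over number 1 was thus 2.58-fold for gamma, 0.51-fold for beta and 0.782-fold for alpha. The gamma to beta ratio was 2.33, 12.4 and 5.60 in the AAV-shbrpf1 libraries, against 2.12, 10.4 and 6.25 in the AAV-scramble libraries.

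Tested over the 3 numbers with limma's F test, 31 of 53 members passed (adjusted p under 0.05 by Benjamini-Hochberg), against a background of 69.4% of all genes tested, so their share of 58.5% lay below it. The clusters were unlike: 1 of 12 alpha genes passed (the Pcdha11 row that starts at 37010712), 12 of 20 beta genes and 18 of 21 gamma genes. All 16 tested gamma genes with the common end passed, Pcdhgc3 and Pcdhgc4 with an adjusted p of 0.00227 each, and 2 of the 5 that end early did (Pcdhga2 and Pcdhga9). The count depended on the libraries of number 1: without AAV-shbrpf1 library 1 it was 18 of 52 members (34.6%, against 41.7% of all genes tested), and without AAV-scramble library 1 it was 13 of 51 (25.5%, against 37.7%). With no filter on low values 17 of 58 passed (29.3%), above the 23.2% of all genes then tested, so whether the members' share lies below or above the background turns with the filter.

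All 21 tested gamma genes were higher in number 2 than in number 1, with a median difference of 1.04 on the log2(FPKM + 1) scale. All 20 beta genes were lower, with a median of -0.66, and all 12 alpha genes were lower, with a median of -0.26. The median of all genes tested was itself -0.25, so relative to it gamma stood at 1.29, beta at -0.42 and alpha at -0.01. When libraries were scaled to the median gene, all genes stood at 0.05, gamma genes at 1.37 with 21 of 21 above 0, beta genes at -0.42 with 2 of 20 above 0, and alpha genes at 0.03. Relative to all genes, alpha genes stayed at -0.02, beta genes at -0.47 and gamma genes at 1.33. In number 3 against number 1 the medians were 0.69 for gamma, -0.21 for beta and -0.12 for alpha, beside -0.01 for all genes.

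Both libraries of number 1 lay below the other 4 libraries in 17 of 21 gamma genes, against 23.5% of all genes tested. They lay above the other 4 in 16 of 20 beta genes, against 33.7% of all genes tested. Both libraries of number 2 lay above the rest in 13 of 21 gamma genes, against 20.3%, and below the rest in 16 of 20 beta genes, against 43.7%. Both libraries of number 3 lay above the rest in 1 of 21 gamma genes, against 16.3%, and below the rest in 1 of 21 gamma and 1 of 12 alpha genes, against 6.58%. Over the 21 tested gamma genes, number took 51.1% of the sum of squares, virus 5.52% and the rest 43.4%. Without the 5 genes that end early, set apart after their values were seen, number took 96.4% and virus 1.84%. Over the 20 beta genes these shares were 87.2% and 4.04%, and over the 12 alpha genes 68.0% and 11.2%.

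**Figure D5:**
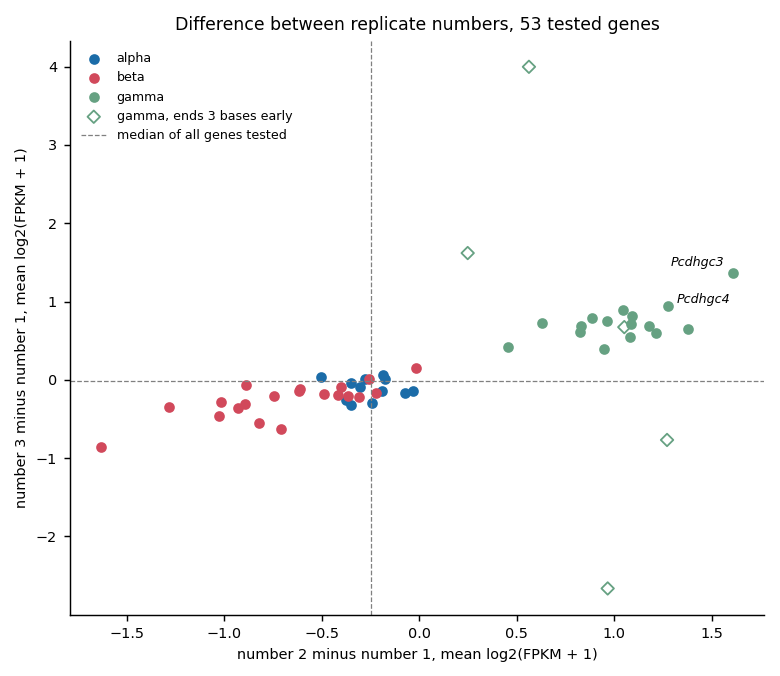
Difference of number 2 from number 1 (horizontal) and of number 3 from number 1 (vertical), as means of the viruses on the log2(FPKM + 1) scale, for the 53 tested genes, with dashed lines at the median of all genes tested (-0.25 and -0.01). Gamma genes lie right of the alpha and beta genes, with the 5 genes that end early (open diamonds) scattered vertically, and Pcdhgc3 is farthest right.

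Base composition, markers of other cells and the make-up of the libraries went with these numbers. Gamma transcripts have a median GC content of 53.04% (51.0% to 55.4%), alpha transcripts 47.3% and beta transcripts 45.97% (39.1% to 49.0%), beside 49.8% for all genes tested. Across 12785 genes, GC content and the difference of number 2 from number 1 had a Spearman rho of 0.77, that of number 3 from number 1 of 0.49 and that of number 3 from number 2 of -0.67. Over the first exon alone, the part that belongs to 1 gene, the alpha and gamma medians were alike, at 53.1% and 52.5%. These are descriptions over genes that share libraries. The other 625 protein-coding genes with a single exon had a median of -0.21 in number 2 against number 1, close to all genes. Progenitor markers, mostly Fabp7, summed to 822, 219 and 664 FPKM in the AAV-shbrpf1 libraries, against 792, 237 and 679 FPKM in the AAV-scramble libraries. Of these 4 genes, 3 had both libraries of number 2 below the rest. Unlike the sum, 3 of the 4 were higher in number 3 than in number 1. Oligodendrocyte lineage markers (4 genes) summed to 124, 201 and 251 FPKM under AAV-shbrpf1, against 107 to 268 FPKM under AAV-scramble. Astrocyte markers (5 genes) summed to 176, 196 and 255 FPKM under AAV-shbrpf1, against 176, 197 and 289 FPKM under AAV-scramble. Fibroblast markers (3 genes) summed to 10.6, 0.218 and 0.295 FPKM under AAV-shbrpf1, against 23.7, 0.216 and 0.352 FPKM under AAV-scramble, and Cx3cr1 of microglia was at 0 in all 6. Ribosomal RNA loci held 3.83%, 11.9% and 2.18% of length-weighted FPKM under AAV-shbrpf1, against 2.57%, 7.73% and 2.70% under AAV-scramble. Mitochondrial genes held 8.82%, 1.92% and 5.40% under AAV-shbrpf1, against 8.14%, 2.61% and 5.83% under AAV-scramble. Genes above 0 numbered 26132, 18780 and 24178 under AAV-shbrpf1, against 25056, 22621 and 23853 under AAV-scramble. The part of these traits in the differences between numbers was not tested.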

How the data were processed

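Paired-end RNA sequencing covered 6 samples, 3 per virus, per the labels' protocols. The authors deposited 1 table with a value per gene and sample, read here as FPKM although its header names no unit. FastQC, StringTie, DESeq2 and the build mm9 are named in the submitters' processing notes, without versions or roles. The sources used here give neither the aligner nor the use of strand. Of 55154 gene identifiers found in GENCODE M21, 54899 have the same start and end, so coordinates are given as GRCm38.

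Depth was estimated from 11673 single-exon genes over 400 nt, with the commonest product of FPKM and length taken as 1 fragment. Only 40.1% to 44.1% of low values lay on whole steps (tolerance 0.03), so no count test was used. Intervals and floors cover counting error only.

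The 12792 genes averaging 1 FPKM or more in a group were tested on log2(FPKM + 1) with limma 3.58.1 (R 4.3.3, trend, two-sided) over all 6 samples, with a threshold of 0.05 on the Benjamini-Hochberg adjusted p. This scale understates changes of low genes. Unless the block is named, an SE beside a difference is from the fit without it and includes the spread between replicate numbers. Sums over clusters were given no test. Deviations from group means correlated at 0.87, 0.83 and 0.57 between same-numbered libraries and at most at 0.00 otherwise, so the numbers were taken to pair the samples. This rests on the values alone. The fits were run on simulated data. Recovery of planted changes was required there of the fit with the block and of the test between numbers. It was not required of the fit without the block. Alternatives were the block, another pseudocount, no filter, 2 scalings and leaving out libraries. Members and lists were chosen with earlier results of these data known. Named are Brpf1, the C-type genes, the 4 most abundant variable genes per cluster, members with groups that do not overlap, the smallest p per cluster and direction, and 2 genes per further list; others are said to be named after their values were seen.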

Additional observations from a re-analysis of the deposited data

How the results depend on the processing

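No clustered protocadherin gene was called between the viruses under any of 14 alternatives, among them the replicate block (0 of 53). Over all genes the count called was 0, also under the replicate block, and 0 to 8 with the block and 1 pair left out (8 without the pair of number 2, 1 without that of number 3). The block changed no other call. Between numbers, the count over all genes of 8876 was 4793 to 8885 under the alternatives. It was 5331 without AAV-shbrpf1 library 1 and 4793 without AAV-scramble library 1. The count of 31 members was 13 to 32 under the alternatives, with 18 without AAV-shbrpf1 library 1, 13 without AAV-scramble library 1 and 17 with no filter on low values. Leaving out a library leaves fewer samples; otherwise the cause was not tested. Differences of the log2 sums stayed within the spread between libraries under every alternative run: -0.09 to 0.09 for alpha, -0.36 to 0.20 for beta, -0.48 to 0.33 for gamma, -0.44 to 0.34 for C-type and -0.28 to 0.12 for variable genes. That spread includes the differences between replicate numbers, so staying within it says little. The block cannot move these differences, because each number has 1 library per virus. The gamma and variable sums were also taken without the 5 genes that end early, an alternative chosen after seeing the data. Depth limits Pcdhb1 in every library, and Pcdhb21, at an estimated 0 to 206 fragments, only in its low ones. The overlap with Pcdhb22 limits Pcdhb21 as well, and the shared constant exons limit single alpha and gamma genes.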

Other observations

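Genes that act on the clusters, work beside their proteins or lie next to them gave no call between the viruses either (limma with Benjamini-Hochberg adjustment, 0 of 22 tested regulators, 0 of 19 partners, 0 of 9 other protocadherins and 0 of 10 neighbours, beside 0% of all genes). At an unadjusted p under 0.05 there was none among these 4 lists without the replicate block, and with it Rac1 and Pcdh19 were under it, against 2.19% of all genes tested. Among the regulators, the corepressor Trim28 had 34.1, 70.3 and 41.9 FPKM under AAV-shbrpf1, against 42.6, 67.5 and 47.1 FPKM under AAV-scramble. Rad21, a cohesin subunit, had 43.1, 18.3 and 40.5 FPKM under AAV-shbrpf1, against 41.7, 22.5 and 39.5 FPKM under AAV-scramble. Both followed the replicate number, in opposite directions, and 21 of the 22 tested regulators passed between numbers, against 69.4% of all genes tested.

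Marcks, a cytoskeletal protein downstream of gamma protocadherins, had 78.7, 55.7 and 103 FPKM under AAV-shbrpf1, against 75.3, 57.8 and 100.3 FPKM under AAV-scramble. Nckap1, a subunit of the WAVE complex that alpha protocadherins bind, had 80.5, 30.7 and 57.2 FPKM under AAV-shbrpf1, against 96.6, 36.6 and 48.5 FPKM under AAV-scramble. Rac1, a GTPase that activates this complex, had 54.9, 47.9 and 64.7 FPKM under AAV-shbrpf1, against 14.9, 13.9 and 69.3 FPKM under AAV-scramble. It was named after its values were seen, its groups overlapped, and its adjusted limma p was 1.00 with and without the replicate block (Benjamini-Hochberg).

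Pcdh1, a protocadherin outside the clusters, had 12.6, 39.5 and 28.3 FPKM under AAV-shbrpf1, against 10.6, 43.1 and 29.5 FPKM under AAV-scramble, and was low in number 1 as the gamma genes were. Pcdh17, which marks circuits of the basal ganglia in mice, had 19.8, 7.61 and 16.1 FPKM under AAV-shbrpf1, against 20.2, 10.2 and 14.3 FPKM under AAV-scramble, and was low in number 2 as the beta genes were. Of the neighbours, Hars had 34.9, 24.6 and 22.9 FPKM under AAV-shbrpf1, against 35.1, 24.2 and 25.7 FPKM under AAV-scramble, and Ik had 35.9, 12.7 and 22.6 FPKM under AAV-shbrpf1, against 38.7, 13.6 and 24.3 FPKM under AAV-scramble. Taf7, which lies between the beta and gamma clusters, had 4.76, 1.28 and 2.57 FPKM under AAV-shbrpf1, against 4.83, 1.72 and 2.47 FPKM under AAV-scramble. Slc25a2, also between them, reached at most 0.256 FPKM, and both were named after their values were seen. Among neighbours 8 of 10 tested genes passed between numbers, as did 6 of 9 other protocadherins, against 69.4% of all genes tested.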
